A study of Homo sapiens with 4 samples.

Results

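The genes described here encode 10 proteins that fuse or divide mitochondria, and they were chosen by name from the count table of UBXN1-knockdown MHCC97H cells. All 10 were found among the 61541 gene IDs of the table, and all 10 passed the filter on low counts that left 16863 genes for testing. MHCC97H is an established human hepatocellular carcinoma (HCC) line. RNA-seq was done on 4 libraries, 2 of control cells carrying shCon and 2 of cells carrying a short hairpin RNA against UBXN1 (shUBXN1), with no other treatment or allele named. UBXN1 is a UBX domain protein studied for its part in mitochondrial homeostasis, and the comparison asks how the transcripts of the fusion and fission machinery differ once it is depleted. The methods name shRFP where the labels name shCon, and neither says whether the libraries of a group came from separate cultures, so p-values measure only the spread between these samples.

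Mitochondria form a network that is remodelled by joining and splitting. The mitofusins MFN1 and MFN2, GTPases of the outer membrane, tether neighbouring mitochondria and fuse their outer membranes. Division is driven by DNM1L (also called DRP1), a dynamin-related GTPase that is drawn from the cytosol by the outer membrane adaptors FIS1, MFF, MIEF1 and MIEF2 and then constricts the organelle. MTFP1 is an inner membrane protein linked to fission, MTFR1 is a mitochondrial fission regulator, and GDAP1 is an outer membrane protein that promotes fission and is best known from inherited neuropathy. In liver cells the balance of both processes follows nutrient supply and stress, and damaged fragments can be passed to mitophagy.

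The human UBXN1 hairpin targets are shown because they define the perturbation and because a hairpin can also pair in part with other transcripts. The sources used here do not name the hairpin carried by the sequenced cells. Capitals mark the 7 bases that would pair with bases 2 to 8 of the guide strand if it begins with the complement of the last target base.
shUBXN1-1: cccgatgtggacgAGCCTTTa
shUBXN1-2: aggagttagcagcCAGACAAa
shUBXN1-3: gcactgacatctcCTTCCTAa
Each target matched the UBXN1 transcript over all 21 bases. Among the fusion and fission genes, the 7 bases of shUBXN1-1 occurred in the transcripts of MFN1 and DNM1L, against 26.6% of the 16830 transcripts searched, 1 per tested gene. Those of shUBXN1-2 occurred in MTFP1 (23.5% of all transcripts), and those of shUBXN1-3 in MFN1 (19.6% of all transcripts). The longest run of any target found in a transcript of these genes was 10 bases, in MFN1 for shUBXN1-1 and in MFF for shUBXN1-2. None of MFN1, DNM1L and MTFP1, the genes holding a 7-base match, passed the test between the groups. A match of letters is a description and was not tested as a site.

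The libraries held between 23373700 and 27380508 estimated counts. UBXN1 was at 67.1 and 77.3 CPM (counts scaled to library size with TMM factors) in shCon and at 16.8 and 18.5 CPM in shUBXN1, a log2 fold change of -2.03. Counts on the mitochondrial genome made up 5.28% and 5.59% of the shCon libraries and 7.43% and 8.27% of the shUBXN1 libraries. Of the hepatic markers, KRT8 and KRT18 were abundant and HNF4A was at 46.9 to 61.8 CPM, while GPC3, EPCAM and APOA1 stayed below 1 CPM in every library. Of 12 hepatocyte and HCC markers, 2 rose and 6 fell in shUBXN1, and their summed level was 4410 to 4580 CPM in shCon and 3470 to 4060 CPM in shUBXN1. The defining leukocyte marker PTPRC and the endothelial marker CDH5 were below 1 CPM throughout. The endothelial list as a whole summed to 48.5 and 50.1 CPM in shCon and to 92.7 and 100 CPM in shUBXN1, with 2 of 5 genes (KDR and PECAM1) higher. The fibroblast list summed to 33.3 and 33.8 against 17.4 and 20.0 CPM, with LUM and DCN lower and COL1A1 higher. The leukocyte list summed to 84.0 and 89.6 against 71.5 and 73.9 CPM, with CD68 and LYZ lower. CD68 alone was at 82.4 and 88.3 CPM in shCon, and the other 6 leukocyte genes, LYZ included, were below 1 CPM in every library. A long noncoding RNA gene on the same strand shares 81.6% of the exon bases of CD68. The part of these marker shifts in the results was not tested.

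Of the 10 fusion and fission genes, MIEF2, FIS1, MFF and MFN2 rose in shUBXN1, GDAP1, MIEF1 and MTFR1 fell, and MFN1, DNM1L and MTFP1 did not pass the test (adjusted p under 0.05, the quasi-likelihood test of edgeR, Benjamini-Hochberg adjusted over all genes tested). The 4 higher genes compare with 28.0% of all genes tested called higher, and the 3 lower genes with 28.2% called lower, so that 56.2% of all genes were called in either direction. When only protein-coding genes were tested, 32.1% were called higher and 32.3% lower, or 64.4% in either direction. The number of these genes called is thus close to what was seen across the transcriptome, and the description below concerns which of them moved, which way and how far. Their median log2 fold change was 0.03 and that of all genes tested 0.016. In size the median change was 0.28 on the log2 scale for these genes and 0.44 for all genes. At a fold change of 2 with an unadjusted p under 0.05, MIEF2 alone was called, higher, where 17.9% of all genes were called, 11.8% higher and 6.09% lower. The libraries of the groups did not overlap in CPM for 8 of the 10 genes, 4 higher and 4 lower, against 78.0% of all genes tested, 39.4% higher and 38.6% lower.

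**Figure D1:**
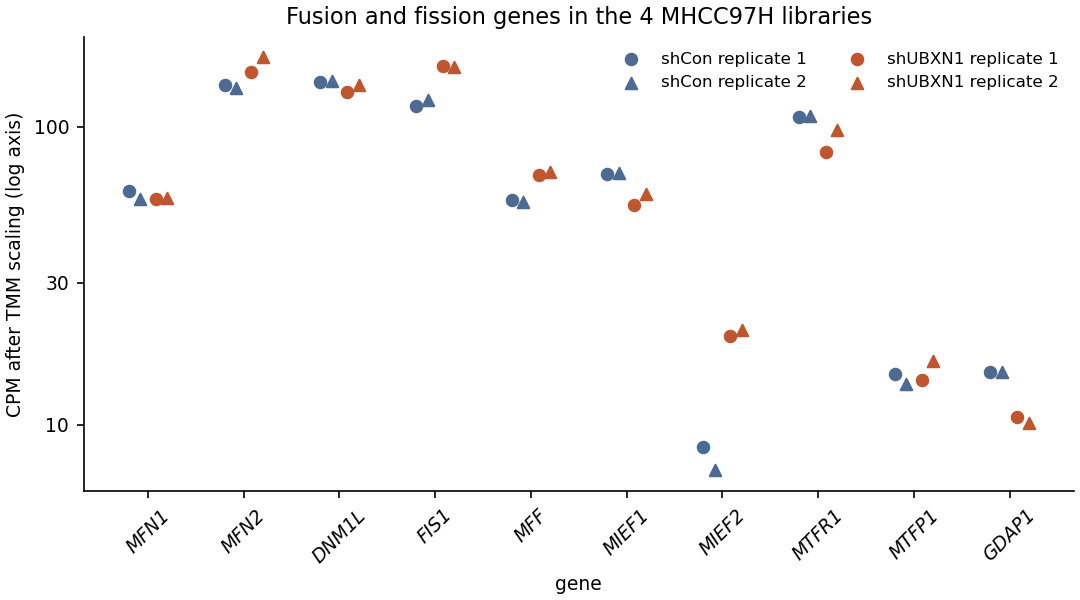
Level of each gene in every library, in CPM after TMM scaling on a log axis, with shCon in blue and shUBXN1 in orange and the replicate number as the marker shape. The shCon and shUBXN1 points of MIEF2, at 7.02 to 8.40 against 19.9 to 20.8 CPM, lie farthest apart, and those of MFN1 and MTFP1 overlap.

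Of the mitofusin genes, MFN2 rose and MFN1 did not pass the test. MFN2 (ENSG00000116688, GRCh38 chromosome 1, 11980181 to 12015211, plus strand) was at 138 and 135 CPM in shCon and at 153 and 171 CPM in shUBXN1. Both shUBXN1 libraries were above both shCon libraries, and expression rose by 0.25 ± 0.0771 on the log2 scale (SE, edgeR adjusted p = 0.0140). This call was the least stable of the higher ones, since without shCon replicate 1 the adjusted p was 0.0543 and without shCon replicate 2 it was 0.254 (log2 fold change 0.21) in the same edgeR test. MFN1 (ENSG00000171109, chromosome 3, 179347709 to 179394936, plus strand) was at 61.1 and 57.2 CPM in shCon and at 57.1 and 57.7 CPM in shUBXN1. Its groups overlapped, and the log2 fold change of -0.04 had a 95% confidence interval of -0.21 to 0.12 (adjusted p = 0.645, edgeR). Within each library, where library scaling cancels, the ratio of MFN2 to MFN1 in TPM, a count scaled by transcript length and library size, was 3.29 and 3.42 in shCon and 3.90 and 4.30 in shUBXN1. The ratio was thus 1.22-fold higher, with no overlap between groups (two-sided exact permutation test, p = 0.333, the smallest that 2 against 2 libraries allow).

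DNM1L (ENSG00000087470, chromosome 12, 32679200 to 32745650, plus strand), the GTPase of division, was at 141 and 142 CPM in shCon and at 131 and 138 CPM in shUBXN1. The shUBXN1 values were slightly lower in both libraries, but the log2 fold change of -0.07 did not pass the test (95% confidence interval -0.22 to 0.09, adjusted p = 0.435, edgeR). The counts were made per gene, so the splice forms of DNM1L and MFF were not separated.

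Among the adaptors that bring DNM1L to the outer membrane, 3 rose and 1 fell. MIEF2 (ENSG00000177427, chromosome 17, 18260597 to 18266552, plus strand), the adaptor with the lowest level, had 224 and 165 counts in the control libraries, or 8.40 and 7.02 CPM, and 492 and 488 counts in the knockdown libraries, or 19.9 and 20.8 CPM. The level in both shUBXN1 libraries was more than double that in either shCon library. This was a 2.63-fold rise, 1.40 ± 0.130 on the log2 scale (SE, edgeR adjusted p = 5.69e-07). It stayed between 1.26 and 1.53 over 16 other ways of processing and passed the test in all of them.

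MIEF1 (ENSG00000100335, chromosome 22, 39499432 to 39518132, plus strand), the paralogue of MIEF2, went the other way. It was at 69.5 and 70.1 CPM in shCon and at 54.6 and 59.3 CPM in shUBXN1, lower in both knockdown libraries than in both control libraries. Its log2 fold change of -0.29 ± 0.0768 (SE) passed the test (edgeR adjusted p = 0.00482), and without shCon replicate 2 the adjusted p was 0.0573. The ratio of MIEF2 to MIEF1 TPM was 0.112 and 0.0932 in shCon and 0.339 and 0.327 in shUBXN1, a 3.25-fold rise that does not depend on library scaling (two-sided exact permutation test, p = 0.333, the smallest possible). MIEF1 remained the more abundant of the pair in every library.

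FIS1 (ENSG00000214253, chromosome 7, 101239458 to 101252316, minus strand), a small tail-anchored adaptor, was at 117 and 123 CPM in shCon and at 160 and 159 CPM in shUBXN1. The groups were well separated, with a rise of 0.41 ± 0.0721 on the log2 scale (SE, edgeR adjusted p = 0.000213) that passed in all 16 alternatives. MFF (ENSG00000168958, chromosome 2, 227325151 to 227357833, plus strand), a tail-anchored receptor for DNM1L, was at 56.8 and 55.7 CPM in shCon and at 68.9 and 70.7 CPM in shUBXN1. It rose by 0.31 ± 0.0740 on the log2 scale (SE, edgeR adjusted p = 0.00257), and without shCon replicate 2 it was 0.28 with an adjusted p of 0.0916. An antisense gene, MFF-DT, covers 8.20% of the exon bases of MFF, and whether reads were counted by strand is not given in the sources used here.

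Per length, FIS1 was by far the most abundant adaptor transcript, at 343 and 350 TPM in shCon and 501 and 462 TPM in shUBXN1. MFF was at 52.9 and 50.3 TPM in shCon and 68.3 and 65.1 TPM in shUBXN1, and MIEF1 at 62.3 and 61.0 TPM against 52.2 and 52.6 TPM, so that MIEF1 stood above MFF in both control libraries and below it in both knockdown libraries. This order rests on the lengths in the deposited file, since MIEF1 and MFF were about level in shCon when the union of all annotated exons was used as the length. The adaptors together summed to 465 and 467 TPM in shCon and to 639 and 597 TPM in shUBXN1. Most of this rise was FIS1, since without it the sums were 122 and 117 TPM in shCon and 138 and 135 TPM in shUBXN1. Within the sum of all adaptors FIS1 took 74.3% ± 0.866 (SD, n = 2) in the control and 77.9% ± 0.703 (SD, n = 2) in the knockdown libraries. The share of MIEF1 was 13.2% ± 0.239 (SD, n = 2) and 8.49% ± 0.466 (SD, n = 2), and that of MIEF2 1.36% ± 0.205 (SD, n = 2) and 2.82% ± 0.0832 (SD, n = 2). The share of MFF, 11.1% ± 0.422 (SD, n = 2) and 10.8% ± 0.154 (SD, n = 2), differed by less than the spread between the shCon libraries. Relative to DNM1L in the same library, FIS1 was 1.40-fold and MFF 1.3-fold higher in shUBXN1 than in shCon, each with no overlap between groups.

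**Figure D2:**
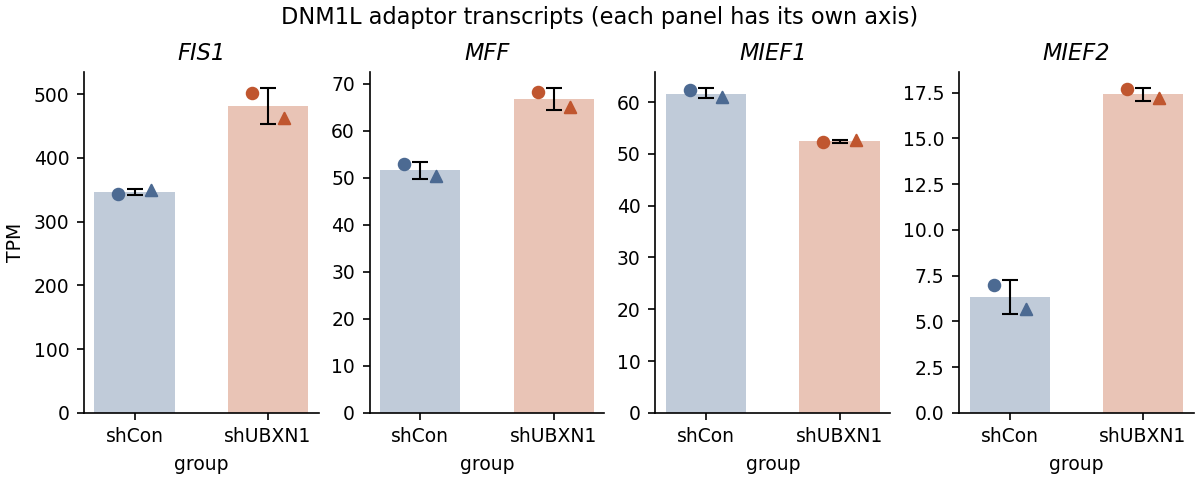
TPM of the DNM1L adaptor transcripts, with bars for the mean of each group, error bars for the SD of 2 libraries and a point for each library, each panel on its own linear axis from 0. FIS1, MFF and MIEF2 are higher in shUBXN1, whereas MIEF1 is lower at 52.2 and 52.6 against 62.3 and 61.0 TPM.

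The remaining fission genes fell or did not pass the test. GDAP1 (ENSG00000104381, chromosome 8, 74320613 to 74518007, plus strand) was at 15.0 CPM in both shCon libraries and at 10.6 and 10.1 CPM in shUBXN1. This was the largest fall among the 10 genes, at -0.53 ± 0.123 on the log2 scale (SE, edgeR adjusted p = 0.00208), and it passed in all 16 alternatives. MTFR1 (ENSG00000066855, chromosome 8, 65644734 to 65771261, plus strand) was at 108 and 109 CPM in shCon and at 82.2 and 97.2 CPM in shUBXN1. Both knockdown libraries were lower but stood apart from each other, and the log2 fold change of -0.28 ± 0.0841 (SE) passed the test (edgeR adjusted p = 0.0122). For MTFR1 the log2 fold change was -0.42 without shUBXN1 replicate 2 and -0.16 without shUBXN1 replicate 1, and the call was lost without shCon replicate 2 (adjusted p = 0.0840) and once the dependence of counts on GC content was removed (-0.20, adjusted p = 0.0556, edgeR). MTFP1 (ENSG00000242114, chromosome 22, 30425623 to 30429054, plus strand) was at 14.8 and 13.7 CPM in shCon and at 14.1 and 16.4 CPM in shUBXN1. Its groups overlapped, with a log2 fold change of 0.10 and a 95% confidence interval of -0.17 to 0.36 (adjusted p = 0.526, edgeR). A readthrough gene on the same strand (ENSG00000249590) covers 55.5% of the exon bases of MTFP1 but was listed with 0 to 3 counts per library.

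**Figure D3:**
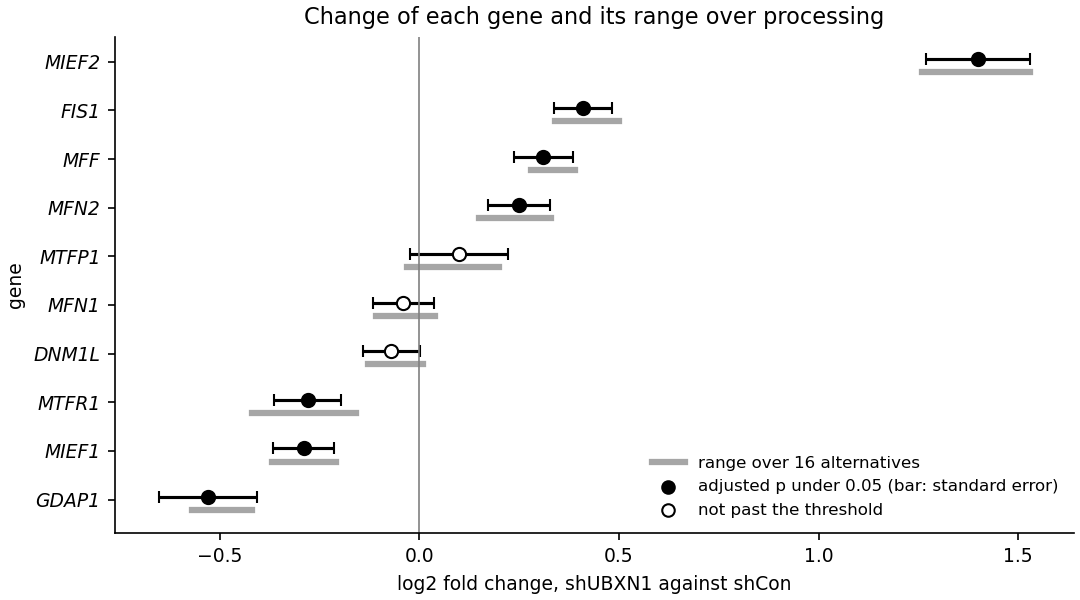
Log2 fold change of each gene in shUBXN1 against shCon, with the standard error as a black bar, filled points for an adjusted p under 0.05 and a grey line for the range over 16 alternatives. MIEF2 stands apart at 1.40, GDAP1 is lowest at -0.53, and the ranges of MFN1, DNM1L and MTFP1 reach 0 or cross it.

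Ordered by TPM in shCon with the lengths of the deposited file, FIS1 was followed by MTFR1 (83.0 and 81.2), MFN2 (78.5 and 74.2), DNM1L (62.9 and 61.6) and MIEF1 (62.3 and 61.0), then by MFF, MTFP1 (26.5 and 23.9), MFN1 (23.9 and 21.7), GDAP1 (8.31 and 8.04) and MIEF2 (7.01 and 5.68). Within every library, with these lengths, DNM1L was above MIEF1 and MTFP1 above MFN1. Across the shCon libraries the values of DNM1L and MIEF1 overlapped, and those of MTFP1 and MFN1 met at 23.9 TPM. In shUBXN1, DNM1L (62.3 and 61.2) and MIEF1 (52.2 and 52.6) were farther apart. At the lower end, MIEF2 and GDAP1 changed places, from the lowest MIEF2 in shCon to the lowest GDAP1 in shUBXN1 (17.7 and 17.2 against 6.25 and 5.52 TPM). The order depended on the length used. With the union of exons, DNM1L ranked 3 and MFN2 4 in both groups, MFN1 moved from rank 8 to rank 5 in shCon and to rank 6 in shUBXN1, and MIEF2 ranked 9 and GDAP1 10 in both groups, so that these did not change places. Counts of these genes ran from 165 to 3995 per library, for which counting error alone is 7.78% and 1.58%. The counts of MFN2 and MIEF2 were whole numbers in all libraries, while those of the other 8 genes were not whole in at least 1 library.

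Genes known to work with this machinery were described from 6 hand-written lists, of which 67 of 68 genes were tested (all but GDAP1L1). Of these, 18 rose and 26 fell, or 65.7% called, beside 56.2% of all genes. When only protein-coding genes were tested, 64.4% of them were called, close to the share of these lists. The lists were written with earlier results of these data known. Among 5 helpers of fusion none was called higher and 2 were lower, with a median log2 fold change of -0.16. These were STOML2, a stomatin-like protein of the inner membrane (124 to 98.5 CPM in the mean, log2 fold change -0.33), and MIGA2, a mitoguardin of the outer membrane (-0.27), and the call of MIGA2 was lost without either shCon library. SLC25A46, an outer membrane carrier family protein, was at -0.16 and did not pass (adjusted p = 0.125, edgeR).

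All 10 tested helpers of fission passed the threshold, 6 higher and 4 lower (median 0.31), beside 56.2% of all genes. With protein-coding genes only, the share called was 64.4%. Not every helper passed in each alternative, with 5 higher and 4 lower by DESeq2 and 6 and 3 by limma on log2(TPM + 1). MTFR1L, a relative of MTFR1, rose from 15.8 and 16.7 CPM to 35.6 and 37.0 CPM (log2 fold change 1.16, adjusted p = 1.69e-07, edgeR). Of the 76 other genes in these lists and among the fusion and fission genes, MTFR1L was the one whose values over the 4 libraries lay nearest to those of MIEF2 (distance 0.314 in log2 CPM after centring). This was a loose match, since the nearest distances of the other fusion and fission genes ran from 0.0186 (MFN2) to 0.137 (GDAP1). Antisense genes overlap up to 14.2% of the exon bases of MTFR1L, and a protein-coding gene on the same strand (ENSG00000255054) shares 7.14%. INF2, a formin that builds actin at the site of constriction, fell from 160 and 162 CPM to 88.4 and 87.4 CPM (-0.87, adjusted p = 1.59e-07, edgeR). TBC1D17, a GTPase-activating protein for RAB7 at mitochondria, rose by 0.68 on the log2 scale.

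Among 20 kinases, phosphatases and anchors that act on DNM1L, 5 rose and 10 fell (median -0.20). Of all genes tested, 28.0% were called higher and 28.2% lower, and with protein-coding genes only 32.1% and 32.3%. The counts moved with total count scaling to 8 higher and 9 lower, beside 31.6% and 23.5% of all genes. CCNB1 and CDK1, the mitotic cyclin and kinase that phosphorylate DNM1L before division, fell with log2 fold changes of -1.28 and -1.18, and AURKA, a mitotic kinase, fell by 0.91 on the log2 scale. CCNB1 was at 158 and 149 CPM in shCon and at 60.8 and 66.0 CPM in shUBXN1, with clear separation of the groups. The largest rise in any of these lists was that of PPP2R2B, a regulatory subunit of protein phosphatase PP2A, from 1.31 and 1.92 CPM to 5.21 and 6.66 CPM (1.88, standard error 0.271, adjusted p = 3.97e-05, edgeR), a gene of low level.

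Of 10 ubiquitin and SUMO enzymes that modify fusion and fission proteins, 2 rose and 4 fell (median -0.19). The shares of all genes tested were 28.0% higher and 28.2% lower. SENP3, a SUMO protease, fell with a log2 fold change of -0.84, while SENP2, another SUMO protease, rose (0.55). A readthrough gene shares 41.7% of the exon bases of SENP3, so its value is uncertain. MUL1, an outer membrane ligase that acts on mitofusins and DNM1L, fell from 27.0 and 23.8 CPM to 18.3 and 18.1 CPM (-0.48).

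Of 9 genes for cristae organisation, none was called higher and 3 fell (median -0.18), beside 28.0% and 28.2% of all genes tested. The lower genes were DNAJC11 (-0.58), APOO (-0.82) and CHCHD3 (-0.22), and the call of CHCHD3 was lost in several alternatives. Among 13 genes for mitochondrial movement and contact sites, 5 rose and 3 fell (median 0.00), beside the same shares of all genes. The adaptor genes TRAK1 and TRAK2, which couple mitochondria to motor proteins, moved apart, with TRAK1 going from 104 and 103 CPM to 53.6 and 59.8 CPM (-0.87) and TRAK2 from 26.1 and 26.8 CPM to 38.7 and 45.2 CPM (0.67). RMDN3, a tether between mitochondria and the endoplasmic reticulum, rose by 0.55 on the log2 scale.

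**Figure D4:**
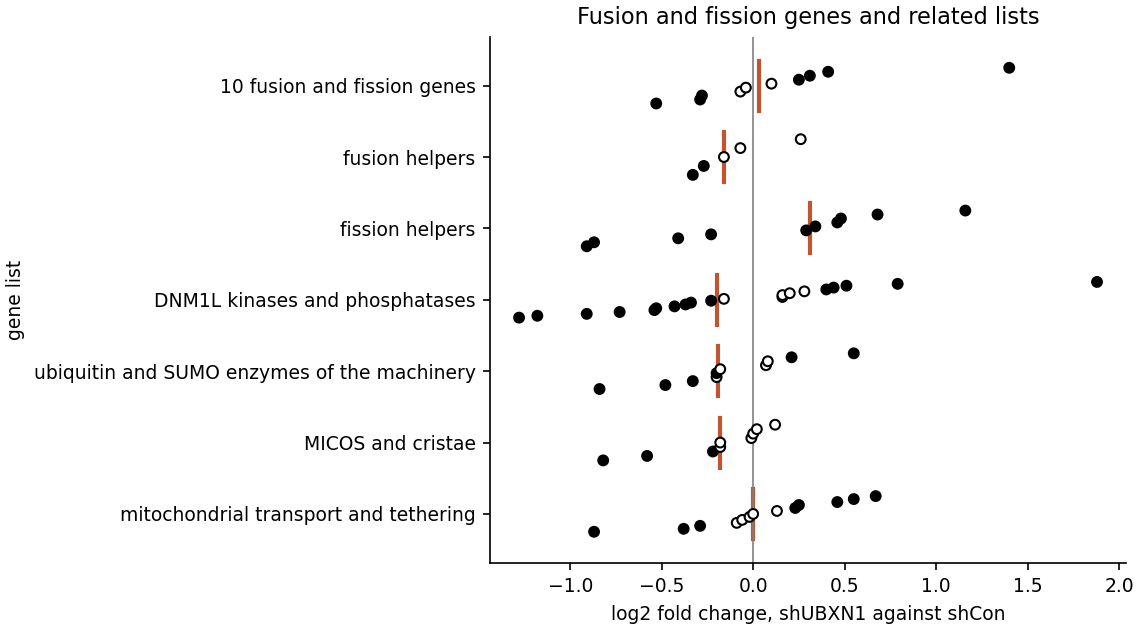
Log2 fold change in shUBXN1 against shCon of the 10 fusion and fission genes and of 6 related lists, 1 point per tested gene, filled where the adjusted p was under 0.05, with the list median as an orange line. All 10 points of the fission helpers are filled, 6 to the right of 0 and 4 to the left.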

How the data were processed

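Paired-end RNA-seq reads of 2 shCon and 2 shUBXN1 libraries were aligned by the authors to GRCh38 with Hisat2 according to the methods, while the submitters' processing notes name HISAT2 2.0.4, StringTie 1.3.0 and GRCh37. Of the gene IDs, 99.7% were found in GENCODE 44 (GRCh38), from which positions were taken. The deposited values are the authors' expected counts, not normalized, 62.4% to 64.6% of the values above 0 being whole, with 1 length per gene that equals an annotated transcript for 96.9% of genes. Counts were rounded, filtered with filterByExpr, scaled by TMM and tested by quasi-likelihood (glmQLFit, glmQLFTest, edgeR 4.0.16, R 4.3.3) without a block, and called at an adjusted p under 0.05. On simulated counts for this comparison, 165 of 200 changed genes among 16863 were recovered and 10 others called. In the data 9478 genes (56.2%) were called, and recovery with so many genes changed was not tested. No change smaller than a fold of 2 was simulated, and recovery was not tested separately by size of change. These figures therefore do not cover the smaller log2 fold changes among the 10 genes. The methods name limma and TPM, which were an alternative (limma 3.58.1), as was DESeq2 1.42.0. TPM was computed from the deposited counts and lengths. The genes and lists were chosen with earlier results of these data known. Named from the related lists were the 3 genes with the smallest p in each and those changed by a fold of 2. Intervals cover the model's error only.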

Additional observations from a re-analysis of the deposited data

How the results depend on the processing

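MIEF2, FIS1 and GDAP1 kept their direction and call under all 16 alternatives, as did UBXN1. With single libraries left out (an arm with 1 library is assumed to vary like the other), log2 fold changes ran from 0.15 to 0.32 for MFN2, 0.28 to 0.32 for MFF, -0.37 to -0.24 for MIEF1, -0.42 to -0.16 for MTFR1, -0.11 to 0.00 for MFN1 and -0.03 to 0.20 for MTFP1, with 2 to 4 of the 10 genes called higher and 1 to 3 lower. Fewest were called without shCon replicate 2, where FIS1, MIEF2 and GDAP1 remained and 41.1% of all genes were called (20.2% higher and 20.9% lower), the lowest share of the 4 such fits, against 56.2% with all libraries. MFN1 was at 0.04 with total count scaling, 0.02 with limma on log2(TPM + 1) and 0.03 after removal of the GC trend, DNM1L at 0.01 and 0.00 with total count scaling and removal of the GC trend, and none of these passed. MTFR1 was at -0.20 after removal of the GC trend and no longer called. By the rule of 2-fold with unadjusted p, 1 of the genes was called higher and 0 lower. With the union of exons as length, the adaptor shares in shCon and shUBXN1 were 76.7% and 78.7% for FIS1, 10.5% and 9.99% for MFF, 10.6% and 6.67% for MIEF1 and 2.27% and 4.61% for MIEF2, and the ratios were 0.214 and 0.692 for MIEF2 to MIEF1 and 1.34 and 1.64 for MFN2 to MFN1. By that rule, applied to all genes (1997 higher and 1027 lower), limma on log2(TPM + 1) called 1028 and 524, limma on log2(CPM + 1) 1005 and 632, and a limit of 1.5-fold called 3201 and 2435, while at least 10 counts in every library left 1321 higher. A lower limit on the same fit calls more genes by construction, and the last setting tested fewer genes. The causes of the other differences were not tested. The labels do not say whether same-numbered libraries were paired. Their deviations correlated with r = 0.0393 over genes, which cannot settle this, and the main test used no pairing. With the replicate block, 5000 genes were called higher and 5023 lower against 4727 and 4751, and the calls of the 10 genes did not change.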
